A study of Mus musculus with 6 samples.

Results

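The genes described here encode the protein components of the cytosolic ribosome. They were taken by symbol, as Rpl or Rps followed by a number with at most a short suffix, together with Rpsa, Rplp0, Rplp1 and Rplp2, with pseudogenes left out. Of 55401 genes in the deposited expression table, 89 had such a symbol, and 81 of them reached 1 TPM (transcripts scaled to a fixed library total) in at least 3 of the 6 libraries. These 81 genes, 32 of the small (40S) and 49 of the large (60S) subunit, are the members, among 14209 genes that passed the same threshold and were tested.

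Polyadenylated RNA was sequenced from NIH-3T3, an established line of mouse embryonic fibroblasts (WT, 3 libraries), and from a derivative labelled only as carrying a mutation (MU, 3 libraries). Both were cultured in the same serum-containing medium with no other treatment labelled. The study's title concerns errors of mitochondrial translation, oxidative stress and cell cycle arrest, and the comparison asks how gene expression differs in the mutated cells. The labels do not name the mutation, whether MU is 1 clone or whether replicates were separate cultures. The effect of the mutation and other differences between the lines therefore cannot be told apart, and the spread behind each p-value, taken over these libraries, may be technical.

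A cytosolic ribosome contains 1 copy of most of its proteins together with ribosomal RNA, and the small subunit reads the mRNA while the large subunit forms the peptide bond. The genes for these proteins are among the most strongly transcribed in growing cells. Their mRNAs start with a run of pyrimidines, the 5′ terminal oligopyrimidine (TOP) motif, through which mTORC1 and LARP1 control their translation as a group. They are also known for having many processed pseudogenes, copies of the spliced mRNA inserted elsewhere in the genome.

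Annotated start sites are shown because the motif that the family shares lies at the start of the mRNA. RefSeq promoter windows (GRCm38.p6) matched 61 of the 81 members and gave 72 windows. In the lines that follow, lower case marks the 20 bases before the annotated start and capitals the first 10 transcribed bases, on the gene's own strand. Rps6, Rps27 and Rpl38 are shown as starts with a pyrimidine run. Of these, only Rps27 was preset for this display, as a member of a paralog pair. Rps6 was preset as a named gene only, and Rpl38 was chosen after its sequence was seen. The other lines show members of paralog pairs whose annotated start lacks one.
Rps6, chr4:86857358-86857387, minus strand: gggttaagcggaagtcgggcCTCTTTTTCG
Rps27, chr3:90213639-90213668, minus strand: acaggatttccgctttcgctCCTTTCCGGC
Rpl38, chr11:114668560-114668589, plus strand: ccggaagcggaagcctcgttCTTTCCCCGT
Rps27l, chr9:66946066-66946095, plus strand, 1 of 2 annotated starts: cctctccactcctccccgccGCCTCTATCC
Rpl22, chr4:152325706-152325735, plus strand, 1 of 2 annotated starts: ccgacttcgccctgggaaaaGCAATAGCTG
Rpl22l1, chr3:28805488-28805517, plus strand: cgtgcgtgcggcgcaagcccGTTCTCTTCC
Rpl39, chrX:37085213-37085242, minus strand: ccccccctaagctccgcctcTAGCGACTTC
Rpl39l, chr16:10170208-10170237, plus strand: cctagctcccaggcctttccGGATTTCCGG

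A start with C followed by at least 4 further C or T was found in 13 of the 72 members' windows (18.06%), against 2.505% of all 32851 RefSeq windows of the same 300 bases. The annotated start need not be the base at which these cells begin transcription, so a window without the run says nothing on the mRNA's true first base. CGGAAG, the core of the site bound by ETS factors, was present on either strand in 62.50% of the members' windows and 16.85% of all windows. CCAAT on either strand was in 30.56% against 37.41%, and TATAAA on either strand in 9.722% against 13.62%. These are descriptions of the letters and not of binding.

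Across the 6 libraries, the members were expressed at a median of 1523.8 TPM, a unit corrected for transcript length. Of the 81, 52 lay at 1000 TPM or more, 22 between 100 and 1000, and 7 below 100. The most abundant was Rps12, a 40S beak protein, with 6888, 7537 and 7280 TPM in WT replicates 1 to 3 and 9152, 9152 and 9541 TPM in MU replicates 1 to 3. Rps27, a zinc-binding 40S protein, followed with 4269, 4124 and 6294 TPM in WT and 5996, 6080 and 6888 TPM in MU. Rps14, a 40S platform protein, had 4607, 4210 and 5220 TPM in WT and 4639, 4575 and 5256 TPM in MU. All MU libraries lay above all WT libraries for Rps12, while the groups overlapped for Rps27 and Rps14. Deposited values were rounded to a few digits, so abundant genes come in steps and libraries can show the same TPM.

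The 3 lowest members, which lay nearest to the threshold of 1 TPM but well above it, were Rpl29 with a mean of 11.47 TPM, Rps2 with 14.91 TPM and Rpl34 with 25.71 TPM. Rpl34 had 25.58, 40.90 and 26.25 TPM in WT and 19.61, 23.27 and 18.68 TPM in MU, and every MU library lay below every WT library. Rps2 had 11.22 to 16.39 TPM in WT and 14.28 to 18.59 TPM in MU, and Rpl29 10.73 to 14.17 and 9.607 to 12.33 TPM. The proteins of all 3 are ordinary parts of the ribosome, and their low values go with large values at their processed copies, which are given further on. Nearest to the threshold among the names left out was Rps3a2, with 2.742, 0.8783 and 0.4140 TPM in WT and 0.1382, 0.7225 and 1.236 TPM in MU. The other 7 names left out were Rpl3l, Rps3a3, Rpl10l, Rps4l, Rps12l1, Rpl6l and Rpl32l, none above 0.7872 TPM in any library. Rpl3l, a paralog of Rpl3 known from striated muscle, was listed at 0 in every WT library and at 0.7872, 0.2739 and 0.08689 TPM in MU. Rpl10l, the testis paralog of Rpl10, was listed at 0 in all 6.

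**Figure D1:**
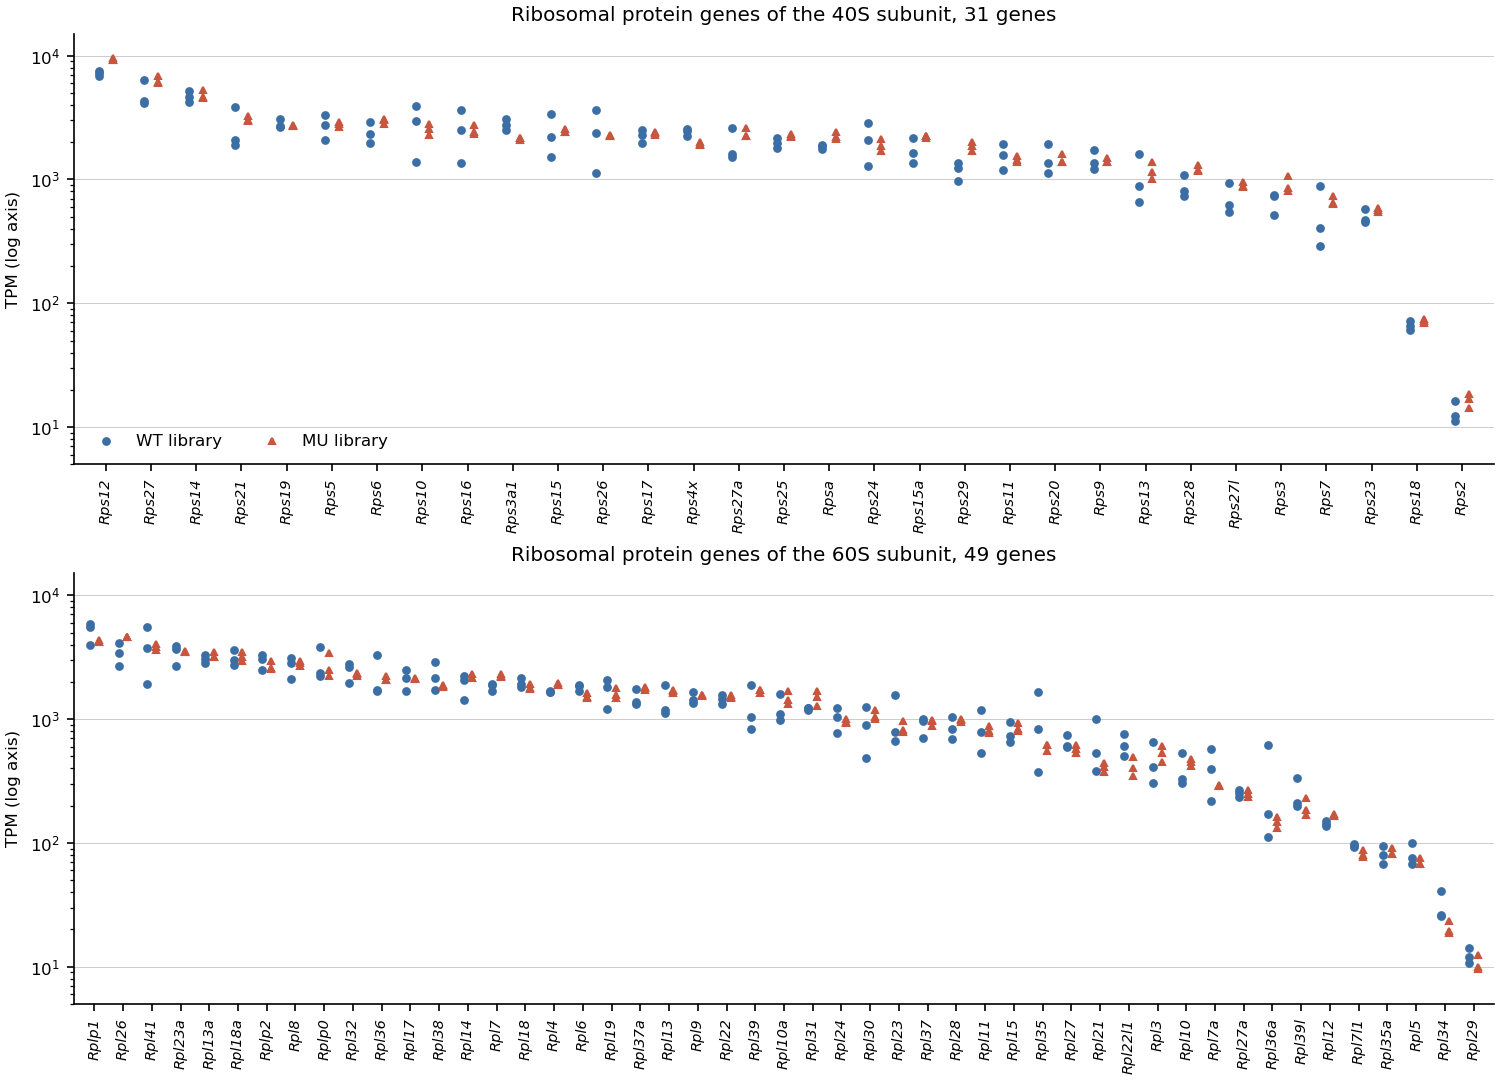
TPM on a log axis for 80 of the 81 ribosomal protein genes, ordered by mean level within the 40S (upper panel) and 60S (lower panel) subunit, with each WT library as a circle and each MU library as a triangle. Most genes lie above 1000 TPM, 7 lie below 100 TPM, and the WT circles are spread more widely than the MU triangles for 77 of the 81 genes.

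In MU, the ribosomal protein genes as a group were close to their WT levels. Rps29 rose, and 0 members fell. No member differed by 1 or more on the log2 scale, and the differences ran from −0.64 for Rpl36a to 0.64 for Rps29. That is 1 of 81 members called (1.23%) at a Benjamini-Hochberg adjusted p under 0.05 in limma, over all 14209 genes, of which 18.8% were called, 7.12% higher and 11.6% lower in MU. The split over all genes depended on scaling: 1012 were higher and 1655 lower as fitted, 1165 and 1230 once mtDNA-encoded genes were taken out, 1278 and 1367 with median-of-ratios scaling, and 1262 and 1322 with quantile normalization. At an unadjusted p under 0.05, 13 members (8 higher, 5 lower) passed in limma, and 33.4% of all genes did. The members' SE had a median of 0.17, and of 8 members that differed by 0.5 or more on the log2 scale only Rps29 passed, so the absence of a call does not show that a gene was unchanged. The difference of Rpl36a rested on 1 library, and without WT replicate 2 it was 0.09 on the log2 scale. TPM values are shares of a library, so the amount of these mRNAs per cell was not measured.

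Rps29 (ENSMUSG00000034892.8, chromosome 12), which encodes a small zinc-binding protein of the 40S head and is a Diamond-Blackfan anaemia gene, had 979.2, 1234 and 1369 TPM in WT and 1845, 1697 and 2019 TPM in MU. The lowest MU library lay above the highest WT library. The difference was 0.64 on the log2 scale (SE 0.15, 1.56-fold, limma adjusted p = 0.0308). The direction held in every fit tried, with differences of 0.51 to 0.75, but 7 of 21 alternatives lost the call. Among them were the fits without WT replicate 1 (adjusted p = 0.0690 in limma) and without MU replicate 1, 2 or 3 (adjusted p = 0.104, 0.0826 and 0.116 in limma). It was also lost with no filter on low values (adjusted p = 0.104 in limma). Over the 21 alternatives the adjusted p in limma ran from 0.0204 to 0.116. None of the 3 copies of Rps29 in the annotation reached the threshold, and all were listed at 0 in every library.

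The members' median difference was 0.07 on the log2 scale, against −0.05 over all tested genes. Differences were positive in 51 and negative in 29 of the 81 members, and that of Rps9 was 0 within 1e-06. By subunit, 25 of 32 genes of the 40S were positive, with a median of 0.16, and 26 of 49 genes of the 60S, with a median of 0.04. Whether the subunits differ was not tested. The groups' values did not overlap in 17 members (21%), 11 with MU above and 6 with MU below WT, while they did not overlap in 39.2% of all genes. The 11 were Rps3, Rps12, Rps25, Rps28, Rps29, Rpsa, Rpl4, Rpl7, Rpl12, Rpl26 and Rpl31, and the 6 were Rps3a1, Rps4x, Rpl6, Rpl7l1, Rpl22l1 and Rpl34. All 17 are named as the complete set, several of them after their values were seen.

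**Figure D2:**
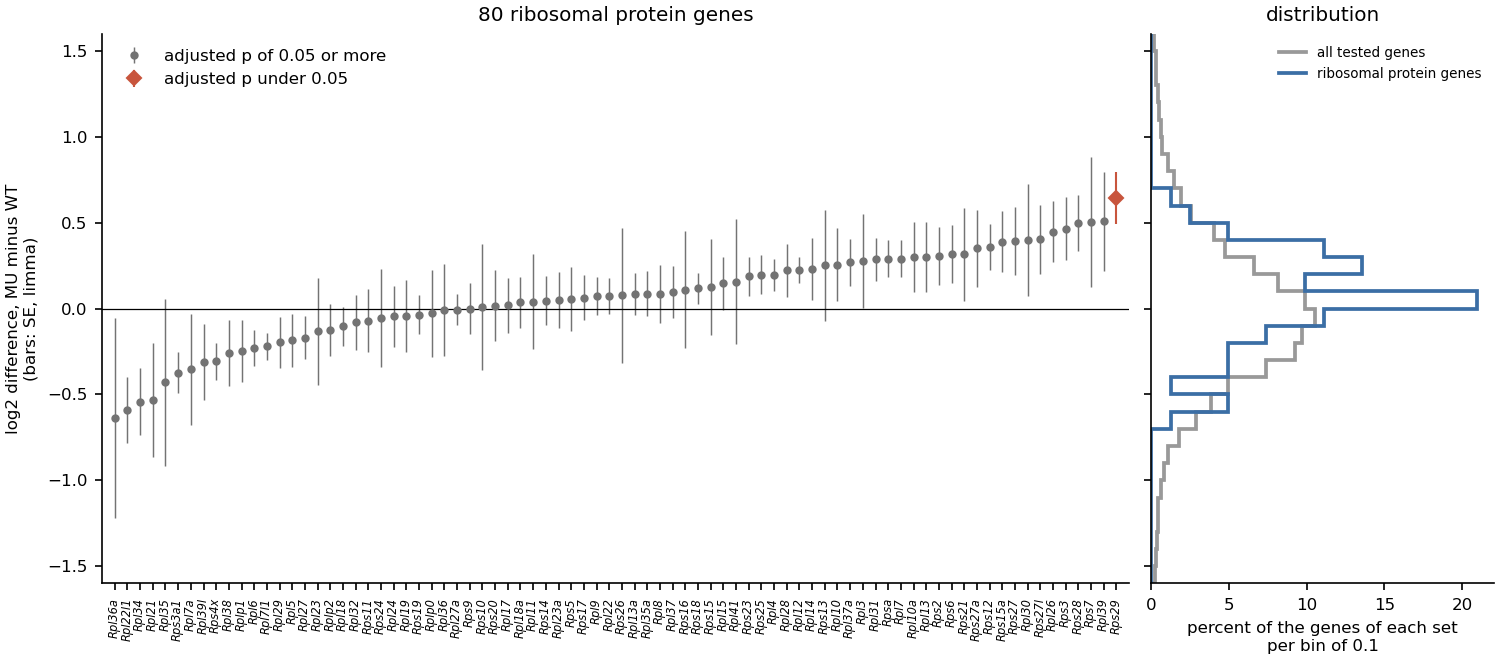
Left, the log2 difference (MU minus WT, bars are SE from limma) of 80 of the 81 genes in rising order, with Rps29, the only gene past an adjusted p of 0.05, as a diamond. Right, the percent of ribosomal protein genes and of all 14209 tested genes in each bin of 0.1, where 322 of all genes lie outside the axis; the members fall between −0.64 and 0.64.

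Among the 40S proteins, Rps12 differed by 0.36 (SE 0.14, limma adjusted p = 0.116). Rpsa, which sits near the mRNA exit and doubles as a laminin receptor, had 1845, 1910 and 1770 TPM in WT and 2134, 2194 and 2435 TPM in MU, a log2 difference of 0.29 (SE 0.11, limma adjusted p = 0.113). Rps4x, the X-linked form of Rps4, lay the other way, with 2451, 2225 and 2538 TPM in WT and 1991, 1937 and 1897 TPM in MU, a log2 difference of −0.31 (SE 0.11, limma adjusted p = 0.0957). The groups did not overlap for either gene, and neither passed. Centred on the genes that neighbour it, Rps4x differed by 0.27 on the log2 scale, with the sign turned. Rps6, the protein phosphorylated by S6 kinase, had 1950 to 2916 TPM in WT and 2777 to 3082 TPM in MU. Rps19, the gene most often mutated in Diamond-Blackfan anaemia, had 2646 to 3061 TPM in WT and 2701 to 2758 TPM in MU, with MU inside the WT range. Rps27a, which is made as a fusion with ubiquitin, had 1519 to 2609 TPM in WT and 2240 to 2591 TPM in MU, again inside the WT range.

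Among the 60S proteins, the acidic stalk that recruits elongation factors is formed by Rplp0, Rplp1 and Rplp2. Rplp0 had 2368, 3794 and 2240 TPM in WT and 2240, 2503 and 3396 TPM in MU. Rplp1 had 5517, 5913 and 3956 TPM in WT and 4210, 4210 and 4359 TPM in MU. Rplp2 had 2469, 3082 and 3303 TPM in WT and 2956, 2573 and 2538 TPM in MU. The groups overlapped for all 3, and their log2 differences were −0.03, −0.25 and −0.13. That of Rplp0 was 0.04 with mtDNA-encoded genes taken out and with median-of-ratios scaling. Rpl5 and Rpl11 form with 5S rRNA the particle that binds MDM2 when ribosome assembly fails. Rpl11 had 786.4, 1192 and 528.7 TPM in WT and 766.5, 806.3 and 872.1 TPM in MU, and Rpl5 67.31 to 100.4 TPM in WT and 67.26 to 76.06 TPM in MU, with no call for either. Rpl7 had 1897, 1910 and 1674 TPM in WT and 2179, 2209 and 2303 TPM in MU, without overlap, and a log2 difference of 0.29 (SE 0.11, limma adjusted p = 0.113), which was −0.03 when centred on neighbouring genes. Rpl41, the smallest ribosomal protein, had 3716, 5556 and 1923 TPM in WT and 3615, 3794 and 4011 TPM in MU. Rpl10, at the peptidyl transferase centre, had 302.2 to 531.6 TPM in WT and 418.1 to 476.1 TPM in MU, and Rpl3 303.4 to 647.5 and 450.6 to 605.8 TPM.

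Functional groupings of the members gave few calls in limma, where 18.8% of all tested genes were called. Of the 19 Diamond-Blackfan anaemia genes 1 passed, which was Rps29, and their median log2 difference was 0.08. Of these 19, 3 were higher and 0 lower at an unadjusted p under 0.05 in limma. More of them, 5, were higher and 0 lower in the authors' deposited table, where 9.42% of genes were higher and 11.6% lower. The lists for the mRNA entry and exit of the 40S (8 genes, median 0.30), the decoding site (4 genes, 0.27), the peptide exit tunnel (9 genes, 0.07), the P stalk (4 genes, −0.08), the 5S particle (2 genes, −0.07) and eukaryote-specific or late-joining 60S proteins (8 genes, 0.01) had 0 calls each in limma. At an unadjusted p under 0.05 in limma, these lists held 3, 1, 1, 1, 0 and 0 members in that order, all higher in MU, where 33.4% of all genes passed, 13.2% higher and 20.1% lower. In the authors' deposited table, 3, 1, 2, 0, 0 and 0 members of them passed, again all higher, where 21.1% of its genes did.

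Several members have a paralog, and whether it takes the same place in the ribosome was not tested. Rpl22l1 stood at 45.68%, 32.35% and 52.27% of Rpl22 in WT and at 32.49%, 26.89% and 22.20% in MU. These groups overlap between WT replicate 2 and MU replicate 1, and an exact permutation test on the log2 ratio gave p = 0.2 (0.333 after Benjamini-Hochberg adjustment over 5 ratios). Rpl22l1 itself had 608.3, 501.9 and 756.4 TPM in WT and 490.1, 400.2 and 344.4 TPM in MU, a log2 difference of −0.59 (SE 0.19, limma adjusted p = 0.0774). Rpl39l, a form best known from testis, stood at 20.5% ± 3.13 of Rpl39 in WT and 11.6% ± 1.85 in MU (SD, n = 3, exact permutation p = 0.1, adjusted 0.25). Rpl7l1 stood at 5.22% ± 0.313 of Rpl7 in WT and 3.66% ± 0.287 in MU (SD, n = 3, exact permutation p = 0.1, adjusted 0.25). In both pairs every MU library lay below every WT library, and 0.1 is the smallest two-sided p that 3 against 3 libraries can give. Rps27l, a p53 target in mouse and human cells, stood at 14.2% ± 0.830 of Rps27 in WT and 14.3% ± 0.562 in MU (SD, n = 3, exact permutation p = 1). Rpl36al, which lies outside the symbol rule, stood at 348% ± 179 of Rpl36a in WT and 453% ± 31.8 in MU (SD, n = 3, exact permutation p = 0.5). This percentage leaves out the processed copies of Rpl36a, which held 86.09% of the TPM of gene and copies together. Rpl36a with its copies had 1582 ± 758 TPM in WT and 1640 ± 324 TPM in MU (SD, n = 3). Rpl36al had 720 ± 192 and 663 ± 31.2 TPM (SD, n = 3), less than that sum.

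Some ribosomal proteins are encoded by genes with other names. Rack1 (ENSMUSG00000020372.15, chromosome 11, 48800332 to 48806434, GRCm38), the scaffold on the 40S head that binds signalling kinases, had 1488, 1332 and 1398 TPM in WT and 1858, 1910 and 2033 TPM in MU. It rose by 0.46 on the log2 scale (SE 0.10, limma adjusted p = 0.0253), without overlap between the groups. The direction held throughout, but 9 of 21 alternative fits lost the call, among them those without WT replicate 1 and without MU replicate 1, 2 or 3. Fau, a ubiquitin-like fusion that yields the 40S protein eS30, had 584.7, 1208 and 714.1 TPM in WT and 1030, 1304 and 1794 TPM in MU (limma adjusted p = 0.147). Rps27rt, an intronless copy of Rps27, had 134.2 to 230.0 TPM in WT and 166.4 to 270.3 TPM in MU, and Rpl36al 550.8 to 929.6 and 638.6 to 697.9 TPM. Of the genes named here, only Rack1 passed.

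Taken as a share of all TPM, the 81 members held 13.09%, 14.25% and 13.91% in WT and 14.39%, 14.07% and 14.78% in MU. WT replicate 2 lay above MU replicate 2, so the groups overlapped. The means were 13.7% ± 0.594 and 14.4% ± 0.353 (SD, n = 3), a difference of 0.663 percentage points (two-sided exact permutation p = 0.2). The 40S genes held 6.62% ± 0.487 in WT and 7.17% ± 0.200 in MU, and the 60S genes 7.13% ± 0.618 and 7.24% ± 0.157 (SD, n = 3, exact permutation p = 0.2 and 0.9). The summed 60S level over the summed 40S level was 1.086, 1.225 and 0.9388 in WT and 1.001, 1.020 and 1.007 in MU, so the MU ratios sat inside the WT range (exact permutation p = 0.5). Messages encoded by mitochondrial DNA took 10.8% ± 1.98 of TPM in WT and 14.7% ± 0.748 in MU (SD, n = 3), which lowers every other gene's share. With those messages removed and the rest rescaled, the members held 15.4% ± 0.582 in WT and 16.9% ± 0.306 in MU, every MU library above every WT library (SD, n = 3, exact permutation p = 0.1).

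The WT libraries differed among themselves more than the MU libraries did. The SD of log2(TPM + 1) within a group had a median over members of 0.297 in WT and 0.0808 in MU, and it was larger in WT for 77 of the 81. Over all tested genes the medians were 0.214 and 0.123, and over the 1245 other genes with at least 100 TPM they were 0.197 and 0.0682. Between WT replicates 2 and 3, 19 members were at least 2-fold apart, 11 higher in replicate 2 and 8 higher in replicate 3. Rpl36a, whose protein sits near the tRNA exit site, had 171.6, 621.5 and 110.8 TPM in WT and 133.1, 146.7 and 160.9 TPM in MU. These WT libraries also differed in how their values went with GC content. Over 14189 genes, deviations from the mean had a Spearman correlation with GC of 0.33 for WT replicate 2 and −0.25 for WT replicate 3. Over the 81 members the difference of WT replicate 2 from 3 had a Spearman correlation of 0.30 with GC and −0.21 with transcript length, each a description. The part of GC in the spread was not tested.

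**Figure D3:**
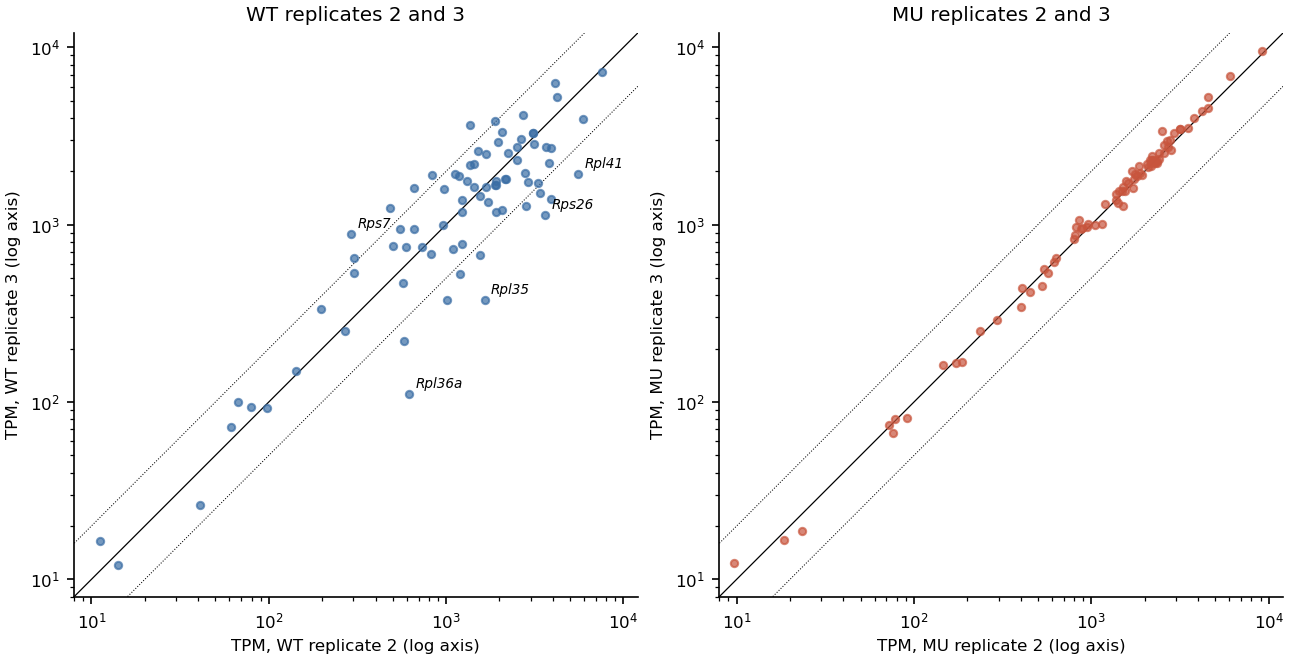
TPM of 80 of the 81 genes in replicate 2 against replicate 3, for WT (left) and MU (right), both axes logarithmic, with the line of equality and dotted lines at 2-fold. In WT, points lie as far as Rpl36a (621.5 against 110.8 TPM) and the farthest are named, whereas the MU points follow the line.

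Counts of calls changed when single libraries were left out. Without WT replicate 3, limma called 14 members higher, where 18.1% of all genes were called, 6.93% higher and 11.2% lower. The 14 were Rps6, Rps7, Rps15a, Rps21, Rps27, Rps27a, Rps27l, Rps29, Rpl10, Rpl10a, Rpl13, Rpl26, Rpl37a and Rpl39, with log2 differences of 0.40 to 0.96, and Rplp1 and Rpl7a were called lower. Without WT replicate 2, limma called Rps23, Rps28, Rps29 and Rpl36 higher and Rps3a1, Rps4x and Rpl22l1 lower, where 23.9% of all genes were called, 8.11% higher and 15.8% lower. With WT replicate 1 left out, or any single MU library, limma called 0 members. In the order WT replicate 1, then MU replicates 1 to 3, those 4 fits called 10.1%, 8.15%, 7.54% and 8.47% of all genes. At an unadjusted p under 0.05 they passed 6, 5, 3 and 2 members in the same order, against 28.7%, 26.3%, 26% and 27% of all genes. Rps29 was the only member called in both of the fits that called any.

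The authors' deposited table, which gives its own fold changes and adjusted p-values for the same libraries, had 11 of 81 members past 0.05 (13.6%), where 21.1% of its 17009 genes with an adjusted p passed, 9.42% higher and 11.6% lower. Higher in the authors' deposited table were 9 members, namely Rps3, Rps12, Rps15a, Rps28, Rps29, Rpsa, Rpl7, Rpl26 and Rpl31, and 2 were lower, Rps3a1 and Rpl22l1. For Rps29, the log2 fold change in the authors' deposited table is 0.65, with an adjusted p of 0.000184. Of the 11, 9 also had an unadjusted p under 0.05 in limma.

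Processed copies of the members held a large part of the family's signal. An annotated gene was counted as a copy when at least 50% of its 25-base words occur in a member's coding transcripts, which gave 393 copies, 381 of them annotated as pseudogenes, for 72 of the 81 members. Of these 393, 77 reached the threshold, and together the copies held 6.14% ± 0.910 of TPM in WT and 6.56% ± 0.568 in MU (SD, n = 3, exact permutation p = 0.5). For 21 members the copies summed to more TPM than the member, and this held for 6 of the 7 members under 100 TPM. A median of 38.3% of a member's 50-base words occurred in transcripts of other genes, with a range of 0 to 95.1%. How reads matching several places were assigned was not stated in the labels, so levels of members with near-identical copies are uncertain, and whether the reads came from the copies was not tested.

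The 3 lowest members show this most plainly. Beside Rpl34, at 25.71 TPM on average, its intronless copy Rpl34-ps1 had 6294, 6038 and 6888 TPM in WT and 5832, 5832 and 5633 TPM in MU. Beside Rps2, at 14.91 TPM, 21 copies summed to 4976 TPM on average. Beside Rpl29, at 11.47 TPM, 17 copies summed to 2852 TPM, nearly all of it in Gm8210 and Gm13841, whose values were identical in all 6 libraries. Rpl5, at 75.62 TPM, stood beside Gm15500 with 1283 ± 141 TPM in WT and 1311 ± 37.6 TPM in MU (SD, n = 3). Rpl12, at 155.2 TPM and chosen after its values were seen, stood beside Gm10275 with 4127 ± 402 and 4492 ± 78.5 TPM (SD, n = 3).

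**Figure D4:**
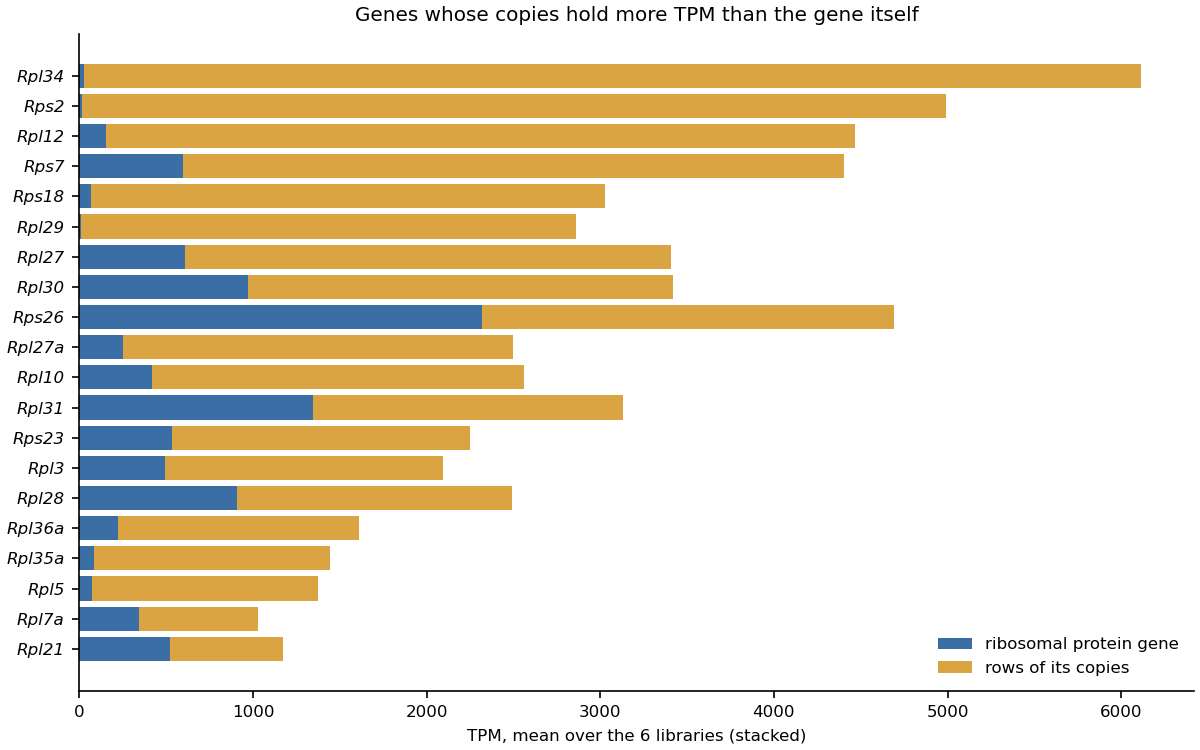
Mean TPM over the 6 libraries of 20 of the 21 ribosomal protein genes whose copies hold more than the gene itself, with the gene (dark) and its copies (light) stacked on a linear axis from 0. Rpl34, Rps2, Rpl29 and Rps18 are almost wholly made up of their copies.

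With each copy's TPM added to its member, the members' median level was 2206 TPM and the number under 1000 TPM went from 29 to 9. Only Rpl7l1 stayed under 100 TPM, at 88.29 TPM. In this fit, chosen after seeing the data, limma called 3 members higher and 0 lower, where 19.1% of all genes were called, 7.27% higher and 11.8% lower. They were Rps29, Rps26 and Rps27a. Rps27a with its copies had 2687, 2659 and 3854 TPM in WT and 4741, 4745 and 4830 TPM in MU, a log2 difference of 0.66 (SE 0.17, limma adjusted p = 0.0378). Its copy Rps27a-ps2 had 1089, 1135 and 1242 TPM in WT and 2149, 2503 and 2573 TPM in MU and rose by 1.06 on the log2 scale (SE 0.12, limma adjusted p = 0.00274). Rps26 with its copies had 2454, 3697 and 2917 TPM in WT and 5111, 5779 and 8181 TPM in MU, a log2 difference of 1.06 (SE 0.23, limma adjusted p = 0.0222). Rps26 alone had 2384, 3615 and 1135 TPM in WT and 2256, 2287 and 2225 TPM in MU, so the rise of the sum lay in its copy Rps26-ps1. Rps26 and the copies are named after their values were seen, and the sums were not refitted without single libraries.

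Among the factors that make ribosomes, calls were mostly lower in MU. Of 51 processing and assembly factors of the 40S, 11 fell and 0 rose, with a median log2 difference of −0.24, and of 50 factors of the 60S, 7 fell and 1 rose, with a median of −0.25. Of 15 proteins of the box C/D and H/ACA snoRNPs, which guide modification of ribosomal RNA, 8 fell and 0 rose, with a median of −0.55. At an unadjusted p under 0.05 in limma, 1 factor of the 40S list was higher and 21 were lower. The 60S list had 1 and 19 and the snoRNP list 0 and 9, where 13.2% of all tested genes were higher and 20.1% lower. In the authors' deposited table these lists, in the same order, had 0, 1 and 0 higher and 11, 10 and 9 lower. Of its genes, 9.42% were higher and 11.6% lower. At the adjusted threshold, 7.12% of all tested genes rose, 11.6% fell and the median log2 difference was −0.05. Whether the lists differ from these backgrounds was not tested. Some genes stand in more than 1 list.

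Tsr2, the escort of Rps26 to the assembling 40S, had 29.17, 32.38 and 34.31 TPM in WT and 15.16, 15.51 and 15.54 TPM in MU. Every MU library lay below every WT library, and Tsr2 fell by 1.004 on the log2 scale (SE 0.09, limma adjusted p = 0.00149). Grwd1, the chaperone of Rpl3, went from 64.5 ± 3.24 to 42.1 ± 4.66 TPM (SD, n = 3) and fell by 0.61 (SE 0.10, limma adjusted p = 0.0108). Of 15 dedicated chaperones and importers, 4 fell and 0 rose, where 11.6% of all tested genes fell and 7.12% rose. At an unadjusted p under 0.05 in limma, 0 of them were higher and 8 lower, beside 13.2% and 20.1% of all tested genes. In this list, 0 were higher and 5 lower in the authors' deposited table, beside 9.42% and 11.6% of its genes. Whether the list differs from these backgrounds was not tested. Rrp12 went from 33.3 ± 1.13 to 20.6 ± 0.812 TPM and Bysl from 25.2 ± 1.06 to 16.3 ± 0.388 TPM (SD, n = 3), both factors of the pre-40S particle. Mak16 went from 94.2 ± 9.29 to 58.2 ± 2.09 TPM and Mrto4 from 86.9 ± 2.44 to 60.8 ± 2.48 TPM (SD, n = 3), both factors of the pre-60S particle, whereas Rrp1 rose from 150 ± 9.88 to 192 ± 10.0 TPM (SD, n = 3), a call that 10 of 21 alternative fits lost, those without WT replicate 1 and without any single MU library among them. Dkc1, the pseudouridine synthase of the H/ACA particles, had 100.1 to 114.3 TPM in WT and 65.67 to 73.03 TPM in MU, and its partner Nop10 43.51 to 59.76 and 29.34 to 34.21 TPM. All of these passed in limma, and their groups did not overlap.

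For RNA polymerase I, which transcribes the large ribosomal RNAs, 5 of 22 genes fell and 0 rose. Of these, 0 were higher and 7 lower at an unadjusted p under 0.05 in limma, beside 13.2% and 20.1% of all tested genes. In this list, 0 were higher and 6 lower in the authors' deposited table, beside 9.42% and 11.6% of its genes. Polr2h, a subunit shared by the nuclear polymerases, had 57.16 to 63.13 TPM in WT and 34.53 to 40.96 TPM in MU, and Tcof1, a nucleolar cofactor of the polymerase, 43.05 to 62.82 and 25.72 to 29.82 TPM. For RNA polymerase III, which makes 5S rRNA, 2 of 22 fell, Gtf3c2 and Polr3g, and 1 rose, its repressor Maf1, from 61.4 ± 0.363 to 87.5 ± 4.25 TPM (SD, n = 3). Among mTORC1 components and binders of TOP mRNAs, 1 of 22 rose and 1 fell. Pdcd4, an inhibitor of translation initiation that S6 kinase marks for destruction, had 7.742 to 9.035 TPM in WT and 15.34 to 18.05 TPM in MU, and Rptor, the mTORC1 scaffold, 38.04 to 39.87 and 29.68 to 30.89 TPM. Of 14 tested transcription factors linked to ribosomal protein promoters, 2 fell, Nfya and E2f1, and 0 rose. All of these counts at the adjusted threshold in limma stand beside 11.6% lower and 7.12% higher over all tested genes. Whether any of these lists differs from that background was not tested. Of 22 other mRNAs with a TOP motif, 2 rose, Rack1 and Btf3, a subunit of the nascent polypeptide-associated complex, and 0 fell, with a median of 0.11. At an unadjusted p under 0.05 in limma, 8 of these 22 were higher and 2 lower. Over all tested genes, 13.2% were higher and 20.1% lower at that threshold. Of the same 22, 7 were higher and 1 lower in the authors' deposited table, where 9.42% of genes were higher and 11.6% lower. The count of higher genes in this list was 5, 6 and 4 with mtDNA-encoded genes taken out, median-of-ratios scaling and quantile normalization. In the same order, 1165, 1278 and 1262 of all tested genes were higher. The list's count ran from 0 to 7 when 1 library was left out, where 427 to 1153 of all tested genes were higher.

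**Figure D5:**
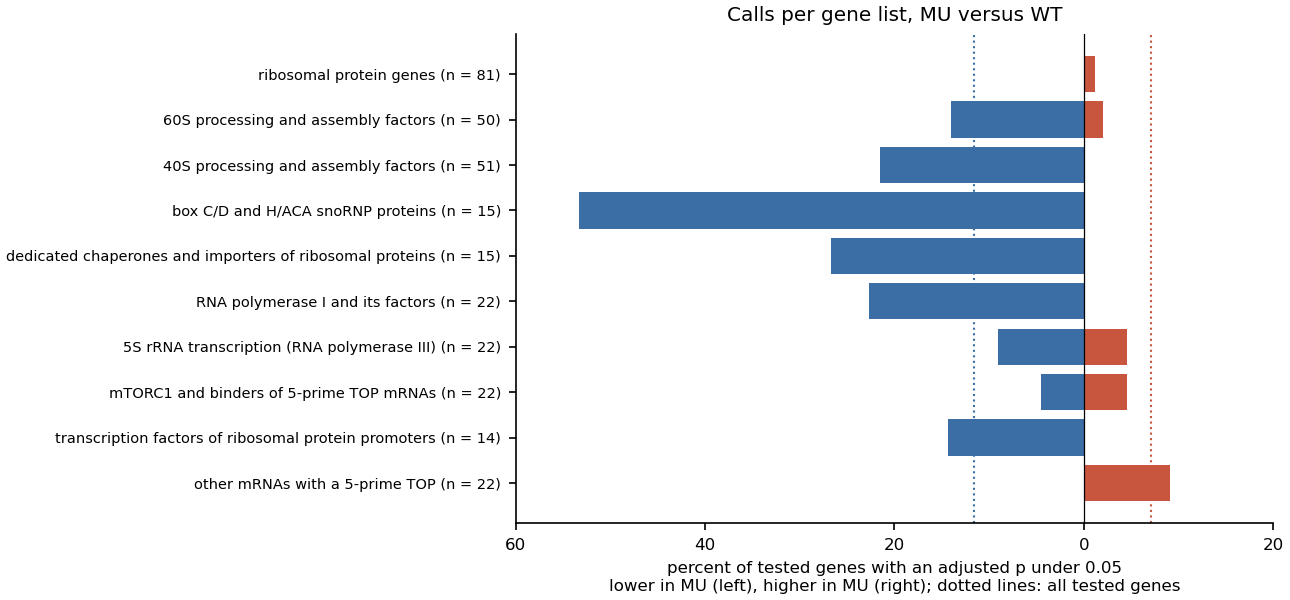
Percent of tested genes in each list with an adjusted p under 0.05 in limma, lower in MU to the left and higher in MU to the right, with dotted lines at the percents over all 14209 genes. The bars to the left are longest for the snoRNP proteins (8 of 15), and the ribosomal protein genes have 1 call in 81.

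These list counts moved with single libraries. The count of lower 40S factors, of 51, was 4, 21 and 10 without WT replicates 1, 2 and 3 and 3, 3 and 4 without MU replicates 1, 2 and 3. Of all 14209 tested genes, 801, 2238, 1590, 705, 644 and 738 were lower in the same order. The count of lower 60S factors was 4, 16 and 10 and then 4, 4 and 5 in the same order, and that of snoRNP proteins 1, 7 and 8 and then 2, 2 and 1. With mtDNA-encoded genes taken out, median-of-ratios scaling and quantile normalization, the 40S list had 7, 9 and 7 lower calls and the snoRNP list 7, 4 and 4, and the medians stayed negative. Of all tested genes, 1230, 1367 and 1322 were lower under these scalings. Of the genes named here, Tsr2, Rrp12, Bysl, Mak16, Dkc1, Polr2h, Tcof1 and Pdcd4 passed in all 21 alternative fits each. The call was lost in 9 of them for Btf3 and for Polr3g and in 7 for Rptor and for E2f1. It was lost in 4 for Nfya, in 3 for Nop10 and for Gtf3c2, in 2 for Maf1 and in 1 for Grwd1 and for Mrto4.

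The 11 fibroblast markers summed to 8680 to 9940 TPM in WT and 11133 to 11642 TPM in MU, with the largest values at Vim and S100a4. Not all were high. Lum had 1.681, 0.8124 and 1.072 TPM in WT and 0, 0.1624 and 0.03110 TPM in MU, and it was not tested. Of 10 tested markers 4 rose and Dcn fell, with 97.29 to 135.6 TPM in WT and 7.351 to 8.714 TPM in MU. Of 30 markers of adipocytes, skeletal muscle, epithelium, leukocytes and endothelium, 27 stayed under 1 TPM in every library. The exceptions were Krt14, Cd68 and Cdh5, none above 5.612 TPM, of which Cdh5 fell. The defining markers Adipoq, Myod1, Epcam, Ptprc and Pecam1 stayed under 1 TPM throughout.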

How the data were processed

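Per the submitters' processing notes, the build was mm10 and the tools were DESeq2 1.20.0, featureCounts 1.5.0-p3, HISAT2 2.05.0 and FastQC 0.11.4. Their roles, the annotation and the handling of multiply matching reads were not stated. The authors deposited log2 values per gene and library, per the file headers and values log2(TPM + 1), and a second table of the comparison (group mean TPM, log2 fold change, raw and adjusted p-value). TPM keeps no depth, so depth is unknown and no counting interval was computed. Values were returned to TPM. Genes with TPM of at least 1 in at least 3 libraries (14209) were fitted as log2(TPM + 1) with limma 3.58.1 in R 4.3.3 (intensity trend, 3 WT against 3 MU, two-sided, no covariate), with Benjamini-Hochberg adjustment over all of them and a threshold of 0.05. Fold changes on this scale understate changes of low genes. The fit was tested on simulated data. Shares and ratios were compared with exact permutation tests.

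Positions, GC content, length and copies came from GENCODE release M21 (GRCm38, the assembly of mm10), matched by identifier for 55141 of 55401 genes, and promoter windows from RefSeq. Members and lists were chosen with earlier results of these data known. Named genes are members past the threshold, the 3 highest and 3 lowest by level, a preset set of stalk, 5S-particle, paralog and signalling members, ribosomal protein genes outside the symbol rule, and in each list the 2 higher and 2 lower genes with the smallest adjusted p; others are said to be chosen after their values were seen. Some genes are not reported here. Alternatives comprised pseudocounts of 0.1 and 5, a TPM minimum of 5 or none, a replicate block, rescaling without mtDNA-encoded or ribosomal protein genes, median-of-ratios and quantile scaling, limma without trend or robust, GC and length correction, centring on 20 neighbours a side, and leaving out each library.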

Additional observations from a re-analysis of the deposited data

How the results depend on the processing

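The replicate numbers did not pair the libraries: deviations of same-numbered libraries correlated at 0.05, 0.02 and −0.07, and no label ties a number to a shared batch. With a replicate block, 1093 of all genes passed against 2667, 0 members were called higher, and Rps29 had an adjusted p of 0.0742 (0.0594 with the GC and length correction as well, limma). With the block, lower calls were 4 for 40S factors and 2 each for 60S factors, snoRNP proteins, chaperones and RNA polymerase I. Of all 14209 genes, 637 were lower with the block. Leaving out 1 library at a time gave 1071 to 3391 genes among all tested, 0 to 14 members higher and 0 to 3 lower. Members called higher were 0 without a filter, 2 under each of limma without trend, median-of-ratios scaling and taking out mtDNA-encoded genes, 3 with quantile normalization, 0 with the GC and length correction plus block, and 3 with copies added. Of all genes, 699 of 30959 were higher without a filter. In the other fits, in the order named, 1001, 1278, 1165, 1262, 729 and 1027 of all genes were higher. Members called lower were 3 with the GC and length correction (Rps3a1, Rpl22l1 and Rpl34), 1 with that correction plus block and 1 when centred on neighbours. In the same order, 2130, 1220 and 1225 of all 14209 genes were lower. The median log2 difference of members was 0.1388 with median-of-ratios scaling and 0.1384 with mtDNA-encoded genes taken out, each of which also moved the median of all genes from −0.05 to 0.00. The difference in the members' share of TPM was 1.49 percentage points once mtDNA-encoded genes were taken out (exact permutation p = 0.1). Of 588 values of 28 named members, 530 kept their direction, side of the threshold and level, 7 lost the call, 15 gained one, 9 moved by more than 1 SD and 27 changed sign. Of 545 values of 26 other named genes, 81 lost the call, 1 gained it and 2 changed sign. The 29 values that changed sign belong to 10 genes and were past the threshold in neither fit. Centred on neighbours, log2 differences were 0.3105 for Rplp0, 0.09283 for Rps19, 0.2692 for Rps4x, −0.02983 for Rpl7 and −0.1143 for Rpl41. With copies added they were 0.02183 for Rpl5, −0.09884 for Rpl11 and 0.1336 for Rpl36a. With the GC and length correction, with or without the block, they were −0.02948 for Rpl11 and −0.02341 for Rps14. Rplp0 had 0.03837 and Rps19 0.02837 with mtDNA-encoded genes taken out, and 0.03879 and 0.02879 with median-of-ratios scaling. Rps19 had 0.002222 and Rpl36al 0.01072 with quantile normalization. Leaving out 1 library gave −0.2 to 0.2133 for Rplp0, −0.2502 to 0.3353 for Rpl11, −0.07667 to 0.02833 for Rps19, −1.152 to 0.08633 for Rpl36a, −0.2567 to 0.5083 for Rpl41, −0.02667 to 0.1283 for Rps14 and −0.2637 to 0.1133 for Rpl36al. The cause of these shifts was not tested. Depth is unknown and limits every low value.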

Other observations

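Some members and their copies took opposite positions across the WT libraries. For Rps16, the copy Rps16-ps2 had 1663, 3326 and 806 TPM in WT against 2486, 1360 and 3640 TPM for the gene, and the SD of log2 values went from 0.716 for the gene to 0.0880 for the sum. For Rpl3 it went from 0.549 to 0.0624. The opposite was seen for Rpl28, where Rpl28-ps1 had 1379, 3615 and 575 TPM in WT and the SD rose from 0.293 to 0.907. Of 31 members with at least 10% of the summed TPM in copies, 21 had a smaller WT SD for the sum, with a median of 0.369 for the gene and 0.268 for the sum.

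Gm12918, a pseudogene whose 25-base words all occur in Rpl13, had 1104, 2520 and 0 TPM in WT and 84.3, 110 and 386 TPM in MU. Rps26-ps1 had 69.3, 81.6 and 1782 TPM in WT and 2855, 3491 and 5955 TPM in MU. Its limma adjusted p was 0.0566, and WT replicate 3 stood apart from the other WT libraries. Rps18-ps5 rose from 445 ± 44.4 to 623 ± 30.8 TPM (SD, n = 3, limma adjusted p = 0.0227), beside Rps18 at 66.2 ± 5.77 and 71.8 ± 2.51 TPM. All genes and copies in this section were chosen after their values were seen.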
